A study of Mus musculus with 49 samples.

Results

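The acute-phase plasma proteins examined here were the products of 9 mouse genes: the serum amyloid A genes Saa1, Saa2, Saa3 and Saa4, haptoglobin (Hp), hemopexin (Hpx), the orosomucoids Orm1 and Orm2, and lipocalin 2 (Lcn2). The genes were picked by name, as the rows of the deposited count table whose Ensembl gene ID is paired with one of these symbols, and these were 9 of 46078 rows. The rule that picks the rows uses names and no level. All 9 had counts in freshly isolated hepatocytes. Their levels are given in 49 libraries of 16 conditions as CPM, the count of unique molecular identifiers (UMIs) of a gene per 1000000 in the library, scaled between libraries by trimmed means (TMM). The assay, CEL-seq2, reads the 3′ end of each transcript, so transcript length does not enter the CPM.

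The study followed adult hepatocytes that lose their differentiated state in culture and become dedifferentiated hepatocytes (dediHeps), and then placed dediHeps in aggregates or organoids. Hepatocytes came from wild-type (WT) male C57BL/6J mice aged 10 weeks. They were sequenced freshly isolated (FH, n = 3) and after monolayer culture with 20 ng/mL EGF for 3 h, 1 day, 2 days, 4 days, 7 days and 14 days (n = 3 each). At 7 days a further pair of groups, also with 20 ng/mL EGF, carried 0.3 µM verteporfin, an inhibitor of the Yap co-activator, or the solvent DMSO alone (n = 2 each). Passaged dediHeps were kept in monolayer with 20 ng/mL EGF (n = 5). They were compared with aggregates of dediHeps in non-adherent wells (n = 3), spherical organoids (SOs) of dediHeps in Matrigel (n = 3), and budding organoids (BOs) of dediHeps that carried a Cdx2 retrovirus (n = 3). The cultures that gave the aggregates and SOs bear the names of dediHep cultures also sequenced as monolayers. Chemically induced liver progenitors (CLiPs, n = 3) are hepatocytes dedifferentiated in monolayer with small-molecule inhibitors. The intestinal groups were SOs of intestinal progenitors from E13.5 fetuses (FIPC SOs, n = 3) and BOs of intestinal stem cells from adults aged 10 weeks (ISC BOs, n = 4), all WT C57BL/6J. No EGF dose is given for the aggregates, organoids or CLiPs. The labels do not say whether the libraries of a group came from separate animals, so the p-values measure the spread between these libraries.

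Acute-phase proteins are plasma proteins that the liver secretes at a changed rate during inflammation or injury. Interleukin-6 acts through STAT3 and C/EBP transcription factors, and interleukin-1 through NF-kB and C/EBP, to raise transcription of these genes in hepatocytes. Saa1 and Saa2 encode the major inducible serum amyloids, which travel with high-density lipoprotein; Saa3 encodes an inducible amyloid that is also made outside the liver, by macrophages and epithelia among others, and Saa4 a constitutive one. Haptoglobin binds free haemoglobin, hemopexin binds free haem, the orosomucoids carry basic and lipophilic ligands, and lipocalin 2 binds the iron-loaded siderophores of bacteria and is also made by neutrophils and injured epithelia.

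The members lie in few places of the genome. In GRCm38.p6 (RefSeq annotation) the serum amyloid genes share a stretch of chromosome 7, with Saa3 at chr7:46711998-46719615, Saa4 at chr7:46727992-46732603 and Saa1 at chr7:46740497-46743181 on the minus strand, and Saa2 at chr7:46751833-46754313 on the plus strand. Hpx lies farther along that chromosome at chr7:105591611-105600116 on the minus strand. Orm1 at chr4:63344556-63348163 and Orm2 at chr4:63362449-63365877 are neighbours on the plus strand, Lcn2 is at chr2:32384637-32387739 and Hp at chr8:109575128-109579172, both on the minus strand. All 9 are protein-coding.

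The RefSeq promoter table held 7 of the 9 genes, and Orm1 and Hp were not in it. The 250 bases before the start that this table gives for each were searched on both strands for TTGCNNAA, a word of the C/EBP type, and all 7 held it, against 9.56% of 32851 promoters searched the same way. The word is shown for each gene because C/EBP factors stand in the signalling list described with the time course. Each line gives 28 bases of GRCm38.p6 on the strand of the gene, 5′ to 3′, with the match in capitals. The starts used for Saa1 and Saa3 lie inside the gene spans given above, so their windows do too, and for Saa4, which held a second match 245 to 238 bases before the start, the nearer match is shown.
Saa1, chr7:46743145-46743172, minus strand: tgtgctcccaTTGCACAAtgagggagaa
Saa2, chr7:46751640-46751667, plus strand: tgtgctcccaTTGCACAAtgagggaaaa
Saa3, chr7:46715758-46715785, minus strand: gtaagtgggaTTATGCAAgatcaaacag
Saa4, chr7:46732638-46732665, minus strand: ccaggaaggaTTGAGCAAgagggactct
Hpx, chr7:105600299-105600326, minus strand: ggctggaaatTTGCTGAAgggggtaggg
Orm2, chr4:63362319-63362346, plus strand: agagaacattTTGCGCAAgacatttccc
Lcn2, chr2:32387938-32387965, minus strand: gcccttcctgTTGCTCAAccttgcacag

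The match lay 182 to 175 bases before the start of Saa1 and 183 to 176 before that of Saa2, inside windows that were 94.8% identical over 250 bases. The Saa1 and Saa3 promoters were 48.5% identical. A STAT word, TTCNNNGAA, was in 0 of the 7 windows and in 7.02% of all promoters, an NF-kB word, GGGNNTNNCC, in 0 of the 7 and in 15.9%, and TATAAA in 1 of the 7, that of Orm2, and in 12.4%. These are matches of letters in a fixed window, and do not show that a factor binds there. The bases from 250 to 51 before the start of Saa2 and Saa3 are given in full because these amyloids differed in dediHeps: Saa2 had no count in any of the 5 libraries, while Saa3 had counts in all of them.
Saa2, chr7:46751583-46751782, plus strand: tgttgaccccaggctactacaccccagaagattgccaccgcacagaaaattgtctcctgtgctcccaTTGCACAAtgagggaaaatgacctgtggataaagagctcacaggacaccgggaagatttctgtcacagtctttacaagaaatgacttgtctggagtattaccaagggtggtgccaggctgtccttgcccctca
Saa3, chr7:46715727-46715926, minus strand: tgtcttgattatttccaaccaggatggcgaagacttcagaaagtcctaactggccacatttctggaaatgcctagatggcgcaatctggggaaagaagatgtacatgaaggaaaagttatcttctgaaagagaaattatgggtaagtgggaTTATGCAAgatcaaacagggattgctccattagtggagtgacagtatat

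The libraries held 861047 to 3872936 UMIs (median 1976760), so a count of 0 allows up to 0.775 to 3.48 CPM in a single library. This range is before the TMM scaling and covers counting error only. The labels were checked against hepatocyte markers, whose summed level was 19130 to 24483 CPM in FH, 1003 to 4559 in dediHeps, 7824 to 11845 in aggregates and 170 to 232 in SOs of dediHeps. The sum was 1324 to 2000 CPM in BOs of dediHeps and 1581 to 2067 in ISC BOs, within the range of dediHeps. At such levels the list is therefore not particular to hepatocytes. Alb was not counted in the SOs and BOs of dediHeps. In bulk RNA, fewer cells making a transcript and less of it per cell cannot be told apart. Saa1 and Saa2 transcripts were 93.9% identical and Orm1 and Orm2 transcripts 91%, with 97.7% over the last 300 bases of the latter pair, so the split of reads between Saa1 and Saa2, and among Orm1, Orm2 and their paralog Orm3, is uncertain.

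In 4 libraries several members stood apart from the rest of their group. FH replicate 1 had 1952 CPM of Saa1 and 765 of Saa2, where the other FH libraries had 323 and 201 CPM of Saa1 and 67.8 and 35.9 of Saa2. Replicate 4 of the dediHeps had 419.6 CPM of Saa3 against 1.85 to 16.3 in the other 4 libraries, and the highest Hp, Hpx and Lcn2 of its group. CLiP replicate 3 had 404 CPM of Orm1, 424 of Orm2 and 205 of Saa1, where the other CLiP libraries had at most 2.56 CPM of each. Its hepatocyte markers summed to 7992 CPM, against 1660 and 1753 in the others. Aggregate replicate 3 had 423 CPM of Orm1 and 329 of Orm2, where the other aggregates had 17.8 and 35.6 of Orm1 and 9.28 and 31.7 of Orm2. Where leaving out 1 of these libraries changed a call, the value without it is given.

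The members summed to 8691 ± 807 CPM (SD, n = 3) in FH and 12205 ± 1328 at 3 h, fell to 414 ± 45.3 at 14 days, and stood at 1338 ± 1077 (n = 5) in dediHeps and 5476 ± 1475 (n = 3) in aggregates. SOs of dediHeps had 198 ± 42.2 CPM and their BOs 5.24 ± 3.79 (n = 3 each). The panels of levels by condition show 3 kinds of course: Saa1, Saa2, Saa4, Orm1 and Orm2 near 0 in dediHeps and back in aggregates, Hp and Hpx lower but present throughout the hepatocyte cultures, and Lcn2 low in FH and high in every hepatocyte culture.

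**Figure D1:**
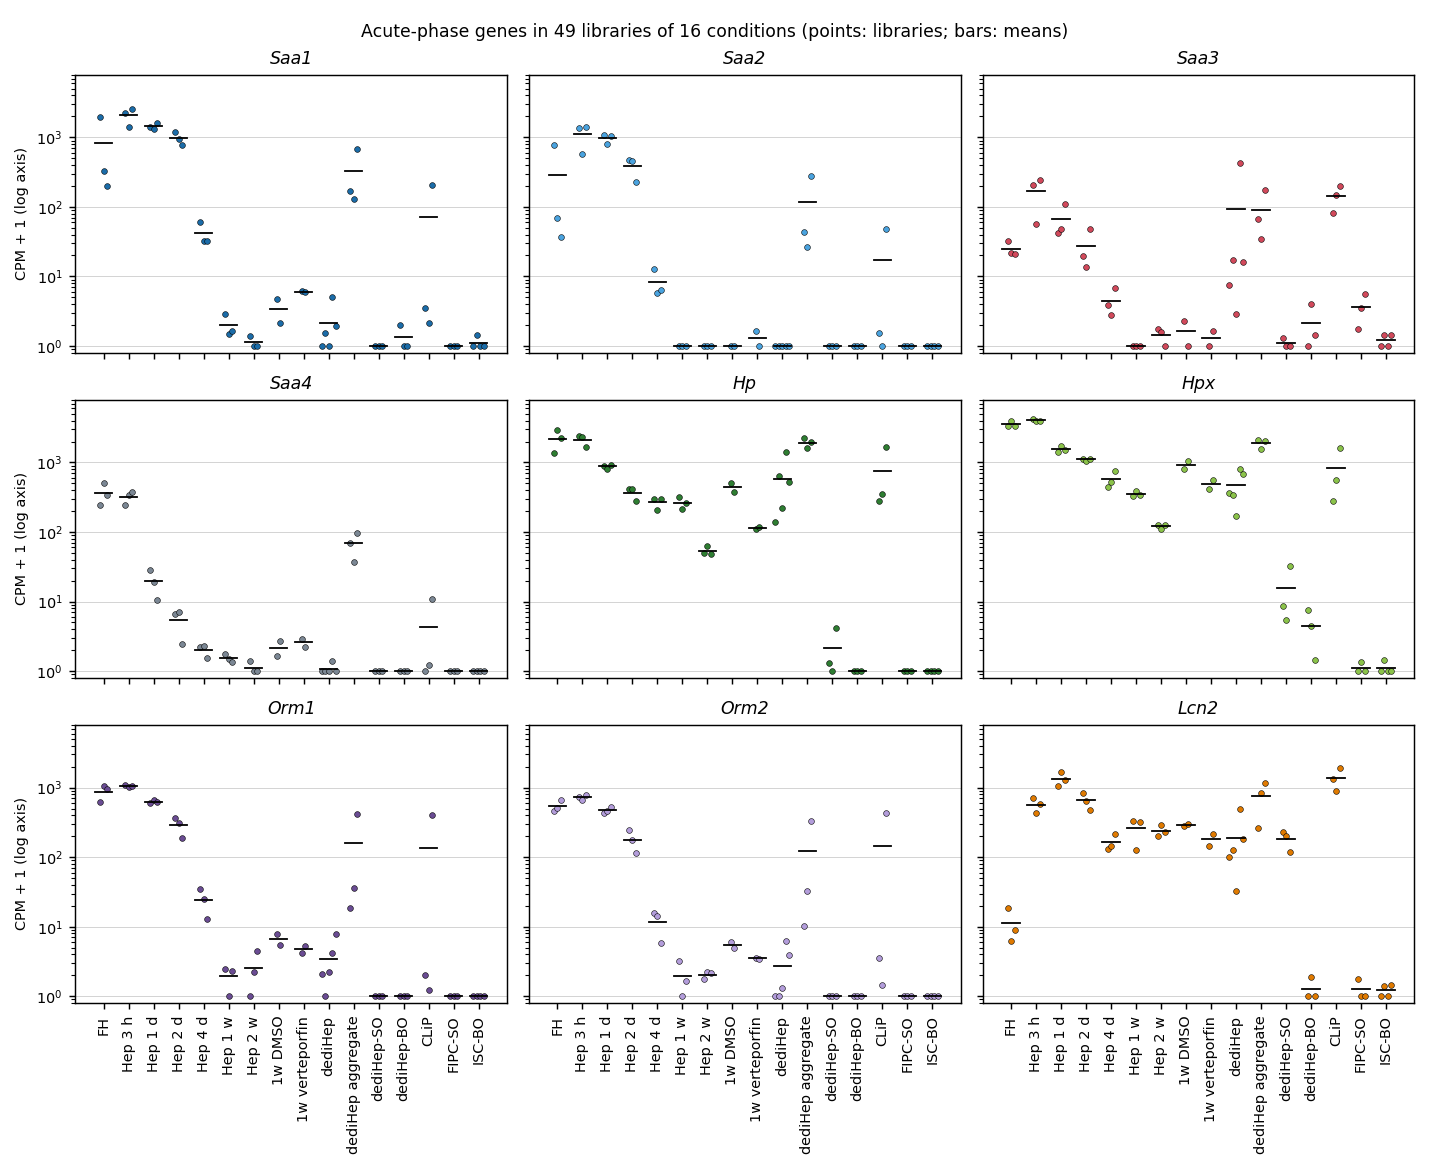
Level of each of the 9 genes in the 16 conditions (y axis, CPM + 1 on a log scale; points are libraries, bars are group means). Hpx stands between 109.8 and 4239 CPM in every hepatocyte monolayer and aggregate library, Saa2 is at 0 in all 5 dediHep libraries, and Lcn2 is the only member over 100 CPM in the SOs of dediHeps.

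The time course asked how the members moved as FH adapted to monolayer culture. The 6 time points were each compared with the same 3 FH libraries in a single edgeR quasi-likelihood fit of 12443 genes, so the 6 comparisons share their control. A gene was called changed at a false discovery rate (FDR) under 0.1 and a log2 fold change beyond 2 in either direction, the thresholds of the study. All 9 members passed the filter on low counts, Lcn2 through the cultures, and the 6 amyloid and orosomucoid genes through FH and the cultures of up to 4 days. The filter thus favoured the direction of such calls. Nothing is read from the members' share against that of all genes at any time point.

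At 3 h, Lcn2 and Saa3 had risen and no member had fallen. Lcn2 had 17.4, 5.22 and 7.98 CPM in the FH libraries and 699, 433 and 572 at 3 h. Every 3 h library lay far above every FH library, which gave 5.78 on the log2 scale (SE 0.48, edgeR FDR = 7.06e-08). Saa3 went from 31.5, 20.9 and 19.9 CPM to 207, 54.9 and 244, without overlap (log2 2.81, SE 0.59, FDR = 0.005). The 2 members called higher of 9 stand beside 3.06% of all genes called higher, and the median log2 fold change was 0.45 over the members and -0.07 over all genes. Lcn2 passed the filter only through the cultures, so nothing is read from this share. Macrophage markers, a possible source of Saa3, moved the other way, from 165 to 493 CPM in FH to 4.79 to 17.1 at 3 h. Neutrophil markers, a possible source of Lcn2, summed to at most 3.21 CPM at 3 h. Their part in the levels of Saa3 and Lcn2 was not tested.

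The other inducible amyloids were higher at 3 h than in 2 of the 3 FH libraries. Saa1 had 2271, 1401 and 2589 CPM at 3 h, overlapping FH through FH replicate 1 at 1952. Its log2 fold change was 1.34 (SE 0.54, edgeR FDR = 0.11), and 3.01 (SE 0.41, FDR = 6.42e-05) without that library. Saa2, at 1351, 566 and 1386 CPM, gave 1.93 (SE 0.75, FDR = 0.103), and 4.43 (SE 0.55, FDR = 6.42e-05) without FH replicate 1, whose 765 CPM exceeded 1 of the 3 h libraries. Both calls thus turn on 1 freshly isolated library. Saa2 was also called after correction of the counts for the limited number of UMIs (2.07, FDR = 0.0986). The share of Saa2 in the reads of Saa1 and Saa2 was 28.1% in that library and 15.1% and 17.3% in the other FH, and 28.8% to 37.3% at 3 h.

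The constitutive amyloid and the haem and haemoglobin binders stood at 3 h within or near their FH range. Saa4 had 240.4, 498 and 341 CPM in FH and 241, 344 and 370.1 at 3 h. Hp had 1353, 2969 and 2265 CPM in FH and 2385, 2309 and 1695 at 3 h, and Hpx 3383, 3989 and 3325 against 4239, 3895 and 3976. These groups overlapped. Log2 fold changes were -0.16 for Saa4 (SE 0.38, edgeR FDR = 0.823), -0.04 for Hp (SE 0.28, FDR = 0.961), 0.19 for Hpx (SE 0.23, FDR = 0.63), 0.28 for Orm1 (SE 0.42, FDR = 0.703) and 0.45 for Orm2 (SE 0.37, FDR = 0.452). All 3 libraries at 3 h had more Orm1 and Orm2 than any FH library, except that Orm1 in 1 library, 1034 CPM, lay under the 1043 CPM of FH replicate 2.

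At 1 day Lcn2 reached its highest level of the time course, and Saa4 had already fallen. Lcn2 stood at 1073, 1702 and 1276 CPM, each above every library at 3 h (log2 6.85 over FH, SE 0.49, edgeR FDR = 2.07e-09). Saa4 fell to 27.5, 18.3 and 9.6 CPM, all far below FH (log2 -4.44, SE 0.45, FDR = 1.15e-07). Of all genes, 6.57% were called higher and 10.9% lower at 1 day, against 1 and 1 of the 9 members. Hp, at 902, 801 and 927 CPM, and Hpx, at 1432, 1712 and 1511, lay below every FH library, with log2 fold changes of -1.49 (SE 0.28, FDR = 0.000265) and -1.37 (SE 0.23, FDR = 9.02e-05) that did not reach the fold threshold.

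The inducible amyloids were still high at 1 day. Saa1 had 1415, 1296 and 1598 CPM and Saa2 1066, 795 and 1037, and Saa1 overlapped FH only through its replicate 1, while each 1-day library had more Saa2 than any FH library. The log2 fold changes were 0.62 for Saa1 (SE 0.54, edgeR FDR = 0.405) and 1.56 for Saa2 (SE 0.74, FDR = 0.12), and without that library 2.3 (FDR = 0.000107) and 4.08 (FDR = 1.46e-05). Saa2 at 1 day was called after the UMI correction too (2.01, FDR = 0.0596). Saa3 was at 41.3, 46.3 and 110.2 CPM, above each FH library, with a log2 fold change of 1.27 (SE 0.57, FDR = 0.096) under the fold threshold. Saa2 reached 38.0% to 43.0% of the reads of Saa1 and Saa2, its highest share in the series.

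At 2 days Hp joined Saa4 among the genes that had fallen. Hp had 409, 412 and 277 CPM (log2 -2.74, SE 0.29, edgeR FDR = 1.5e-07) and Saa4 5.52, 6.12 and 1.45 (log2 -6.48, SE 0.50, FDR = 2.01e-09). The 2 members called lower compare with 12.1% of all genes, and Lcn2, at 846, 651 and 469.7 CPM, was the 1 called higher, beside 9.21% of all genes. Orm1 at 360.4, 310.4 and 190.3 CPM and Orm2 at 246, 174 and 113 lay below every FH library, each with a log2 fold change of -1.77 (FDR = 0.00251 and 0.00082). Hpx, at 1124, 1063 and 1126 CPM, was also lower (log2 -1.85, SE 0.24, FDR = 1.77e-06), and passed the fold threshold after the UMI correction (-2.08). Saa1 stood at 1205, 939 and 766 CPM and Saa2 at 473, 448 and 223, overlapping FH through its replicate 1. Saa2 gave 0.22 on the log2 scale (FDR = 0.838), and 2.74 (SE 0.51, FDR = 0.000358) without FH replicate 1, so that it was then called higher.

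Between 2 and 4 days the inducible amyloids and orosomucoids dropped together. Saa1 went from 766 or more to 59.6, 31.4 and 31.6 CPM, Saa2 from 223 or more to 11.8, 4.79 and 5.35, and Orm1 from 190.3 or more to 34.3, 24.0 and 11.8. No 4-day library overlapped the 2-day libraries for any of these genes. Against FH, all 8 members other than Lcn2 were called lower at 4 days, from -2.77 for Hpx (SE 0.25) to -8.47 for Saa4 (SE 0.58), where 12.4% of all genes were called lower. Lcn2 stayed above FH at 129.9, 142 and 218 CPM (log2 3.84, SE 0.45, edgeR FDR = 4.07e-07), beside 11.4% of all genes called higher.

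At 7 and 14 days the same 8 genes were called lower and Lcn2 higher. Saa2 had no count in any of the 6 libraries, at least 765-fold below FH at 7 days and at least 508-fold at 14 days, taking 3 counts over each group as the floor. Saa1 had 1 count left at 14 days, 4329-fold below FH (95% counting interval 776 to 171060). FH replicate 1 held 703 of the 791 FH counts of Saa2 and 1795 of the 2245 of Saa1. These folds thus rest mostly on that library. Orm1 and Orm2 were at 0 to 3.43 CPM. Of all genes, 12.8% were called lower at 7 days and 15.3% at 14 days, and 13.2% and 14.1% higher.

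Hp and Hpx kept a measurable level to the end. Hp had 321, 213 and 257 CPM at 7 days and 48.4, 62.5 and 48.1 at 14 days (log2 -5.51 against FH, SE 0.34, edgeR FDR = 1.29e-11). Hpx had 324, 382 and 341 CPM and then 123, 109.8 and 127 (log2 -5.03, SE 0.27, FDR = 2.43e-12). Each 14-day library lay below each 7-day library for both genes. Lcn2 did not share this course, with 329, 128 and 321 CPM at 7 days and 199, 287 and 228 at 14 days, and log2 fold changes over FH of 4.47 (SE 0.46, FDR = 4.46e-08) and 4.38 (SE 0.46, FDR = 5.26e-08). Macrophage markers spanned 3.3 to 202 CPM at 7 days and 18.3 to 467 at 14 days, and neutrophil markers were at most 0.478 and 5.72 CPM. Their part in the Lcn2 level was not tested.

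**Figure D2:**
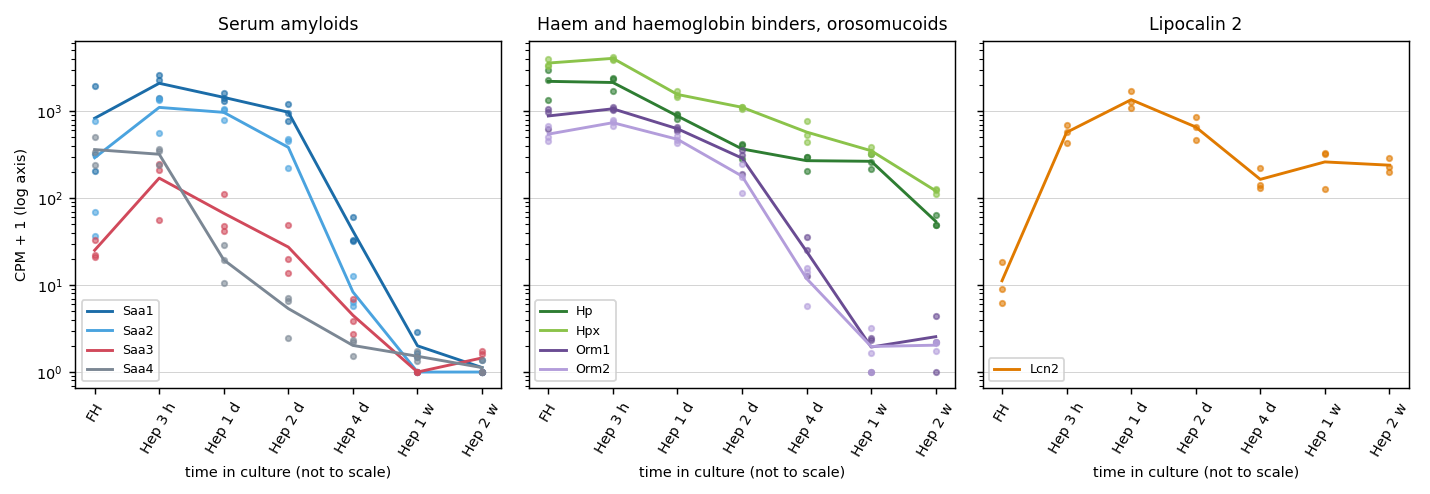
Levels from FH to 14 days of monolayer culture (x axis, time point; y axis, CPM + 1 on a log scale; points are libraries and lines join group means), with the amyloids, the binding proteins with the orosomucoids, and Lcn2 in separate panels. Saa1 and Saa2 are still at 223 CPM or more at 2 days and at most 59.6 at 4 days, Saa4 is at most 27.5 from 1 day, and Lcn2 exceeds every FH library at each time.

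Other genes of the acute-phase response, from lists written with results of these data known, gave the setting of these changes. The group through which each listed gene passed the filter on low counts was not examined. Here and in the later comparisons, nothing is read from the share of a list that was called. Of 30 further acute-phase proteins, 5 were called higher and none lower at 3 h, among them the metallothionein Mt2 (log2 6.39, SE 0.45), the endotoxin co-receptor Cd14 (7.46, SE 1.00), Mt1 (3.31, SE 0.48) and the metalloreductase Steap4 (3.01, SE 0.90). Of 28 signalling genes tested, 8 were called higher and none lower, among them Nfkbia (2.08, SE 0.26) and Nfkbiz (3.53, SE 0.50), which act on NF-kB, the transcription factor Cebpb (2.84, SE 0.39) and the interleukin-1 receptor Il1r1 (2.97, SE 0.47). Of 4 cytokines tested, 3 were called higher, Cxcl1 at 3.72 (SE 0.44), Cxcl2 at 8.46 (SE 1.12) and Ccl2 at 4.85 (SE 1.01). Haem oxygenase Hmox1, which breaks down the haem that hemopexin carries, went from a mean of 17.9 CPM in FH to 871 at 3 h (log2 5.64, SE 0.65, edgeR FDR = 8.07e-06), and Tlr2 (3.16, SE 0.88) was the other of the 13 haem and siderophore genes called higher.

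Later the further acute-phase proteins were mostly called lower, 6 of 30 at 1 day, 21 at 2 days, 24 at 4 days and 25 at both 7 and 14 days, with 2 or 3 called higher from 1 day on. None of the 13 negative acute-phase proteins, whose plasma level drops in inflammation, was called in either direction at 3 h, and none was called higher at any time. Of these, 2 were called lower at 1 day, 7 at 2 days, 10 at 4 and 7 days and 12 at 14 days. Inducible and negative acute-phase proteins were thus called lower side by side at the later times. In signalling, Cebpa, the C/EBP factor of differentiated hepatocytes, was called lower at 1 day (log2 -3.96, SE 0.35), 2 days (-4.62, SE 0.36) and 7 days (-3.82, SE 0.35), and Il6ra, the interleukin-6 receptor subunit, at 7 days (-3.71, SE 0.40). At each time only up to 4 called genes of a list, those of smallest p, were named. The times given for Cebpa and Il6ra thus need not be all those at which they were called.

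The comparison of dediHeps with FH asked which members passaged cells still expressed. In dediHeps 7 of the 9 members were called lower, against 12.6% of the 11276 genes tested, Lcn2 was called higher, against 13.1%, and Saa3 was not called. Saa1, Saa2, Saa4, Orm1 and Orm2 passed the filter on low counts only through FH and Lcn2 only through the dediHeps, so the filter fixed their direction, and nothing is read from the members' share against that of all genes. Saa1 had 0, 0.508, 0, 4.07 and 0.965 CPM in the 5 dediHep libraries (log2 -9.70, SE 1.11, edgeR FDR = 5.05e-05). Saa2 had no count in any of them, at least 1134-fold below FH, a bound that rests mostly on FH replicate 1 (703 of 791 FH counts). Saa4 had a single count in the 5 libraries, 4064-fold below FH (95% counting interval 728 to 160700). No dediHep library reached the lowest FH library for these 3 genes.

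The orosomucoids were likewise nearly lost. Orm1 had 1.09, 0, 1.23, 3.26 and 6.75 CPM in dediHeps (log2 -8.66, SE 0.73, edgeR FDR = 6.44e-06) and Orm2 0, 0, 0.309, 5.29 and 2.89 (log2 -8.46, SE 0.84, FDR = 1.97e-05). Hp and Hpx stood far above this level. Hp had 139, 635, 217, 1396 and 520.4 CPM, and replicate 4 exceeded the lowest FH library. Its log2 fold change of -2.15 (SE 0.61, FDR = 0.0158) fell short of the fold threshold without FH replicate 2 (-1.87), dediHep replicate 1 (-1.91) or dediHep replicate 3 (-1.94), and after the UMI correction (-1.92). Hpx had 357, 342, 169.7, 816 and 683 CPM, all below FH (log2 -3.14, SE 0.45, FDR = 0.000243).

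Saa3 and Lcn2 varied widely between dediHep cultures. Saa3 had 6.57, 16.3, 1.85, 419.6 and 15 CPM, so that 4 libraries lay below FH and 1 above it. The log2 fold change was 1.66 (SE 1.44, edgeR FDR = 0.401), and -1.51 (SE 0.65, FDR = 0.0948) without replicate 4. Lcn2 had 101, 126, 31.2, 485 and 182 CPM, each above the highest FH library at 17.4 (log2 3.91, SE 0.88, FDR = 0.00467). Macrophage markers were at 1.93 to 10.8 CPM in dediHeps, with 9 of 15 at 0, and neutrophil markers at 0 to 19.7, with 6 of 11 at 0.

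Among the other lists, 24 of 29 further acute-phase proteins tested were called lower in dediHeps and 2 higher, and 10 of 13 negative ones were called lower. The complement inhibitor Serping1 (log2 -12.54, SE 0.66) and the antiproteases Serpina3n (-10.49, SE 0.60) and Serpina3k (-13.46, SE 0.79) were among them. All 4 cytokines tested were called higher, Ccl2 from a mean of 2.84 to 1329 CPM (log2 8.58, SE 0.81). Of 29 signalling genes, 5 were called lower, including the receptors Il6ra (-3.52, SE 0.39), Lifr (-4.35, SE 0.45) and Il1rap (-5.84, SE 0.69), and 4 higher, including Nfkb2 (3.05, SE 0.36).

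Aggregation of dediHeps, a condition that in the study favours the hepatocyte state, was compared with monolayer dediHeps. In aggregates 7 of the 9 members were called higher and none lower, against 4.39% of the 11265 genes tested called higher. Saa1, Saa2, Saa4, Orm1 and Orm2 passed the filter on low counts only through the aggregates, so the filter fixed their direction, and nothing is read from the members' share against that of all genes. The dediHep libraries are those compared with FH above.

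Saa1 rose to 166, 130.4 and 674 CPM in aggregates, far above the 4.07 CPM of the highest dediHep library (log2 8.13, SE 0.91, edgeR FDR = 0.000526). Saa2 had 42.5, 25.6 and 277 CPM, at least 455-fold above dediHeps, and Saa4 69.6, 36.5 and 96.9, 757-fold above (95% counting interval 135 to 29989). The bound for Saa2 rests mostly on aggregate replicate 3, which held 540 of the 654 counts. Orm1 rose to 17.8, 35.6 and 423 CPM (log2 6.00, SE 1.08, FDR = 0.00606) and Orm2 to 9.28, 31.7 and 329 (log2 6.14, SE 1.20, FDR = 0.00936). No aggregate overlapped the dediHeps for any of these 5 genes. The aggregates differed among themselves, and replicate 3 had the highest Saa1, Saa2, Saa3, Saa4, Orm1, Orm2 and Lcn2.

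Hp and Hpx were also higher in each aggregate than in any dediHep library. Hp had 2215, 1591 and 1965 CPM (log2 1.80, SE 0.57, edgeR FDR = 0.0593), under the fold threshold, and 2.39 (SE 0.47, FDR = 0.0103) without dediHep replicate 4. Hpx had 2118, 1587 and 2028 CPM (log2 2.07, SE 0.42, FDR = 0.0107), and its fold fell below the threshold, to between 1.85 and 1.99, without dediHep replicate 1, 2 or 3 or aggregate replicate 1. After the UMI correction the log2 fold change of Hp was 2.34 (FDR = 0.0658) and Hp was called.

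Lcn2 was at 265, 849.6 and 1173 CPM in aggregates, and the lowest of these lay under dediHep replicate 4 at 485. Its log2 fold change of 2.09 (SE 0.69, edgeR FDR = 0.0647) was 1.84 (SE 0.41, FDR = 0.0156) when cultures of the same name were paired, and it fell below a threshold without dediHep replicate 1 (1.94), 2 (1.97) or 3 (1.81) or aggregate replicate 2 (2.02, FDR = 0.152) or 3 (1.65). Saa3, at 65.7, 33.0 and 173 CPM, lay above 4 of the 5 dediHep libraries. Its log2 fold change was 0.05 (SE 1.34, FDR = 0.982), and 3.24 (SE 0.71, FDR = 0.0162) without dediHep replicate 4. Macrophage markers summed to 3.87 to 18.7 CPM in aggregates, with 11 of 15 at 0.

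Set against FH, aggregates were lower in Saa4, Orm1 and Orm2 and higher in Lcn2. Of 9544 genes tested, 9.78% were called lower and 6.78% higher, and of the 9 members 3 and 1, with Lcn2 passing the filter only through the aggregates. The log2 fold changes were -2.57 for Saa4 (SE 0.45, edgeR FDR = 0.0018), -2.65 for Orm1 (SE 0.92, FDR = 0.0534) and -2.32 for Orm2 (SE 0.93, FDR = 0.0875), and 6.01 for Lcn2 (SE 0.69, FDR = 0.000134). The call of Orm1 was lost without FH replicate 2 (FDR = 0.111) or aggregate replicate 2 (FDR = 0.144), and that of Orm2 without any FH library or aggregate replicate 1 or 2 (FDR = 0.134 to 0.237), or after the UMI correction (FDR = 0.112).

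For the other members the aggregates did not differ from FH beyond the thresholds. Saa1 gave -1.60 (SE 0.86, edgeR FDR = 0.193) and Saa2 -1.59 (SE 1.10, FDR = 0.312), and without FH replicate 1 these turned to 0.14 (FDR = 0.897) and 0.99 (FDR = 0.464). Without aggregate replicate 3 they were -2.63 (FDR = 0.0743) and -3.26 (FDR = 0.0884), and Saa1 was also called without FH replicate 3 (-2.08, FDR = 0.0873). Hpx gave -1.06 (SE 0.29, FDR = 0.021). Hp gave -0.33 (SE 0.34, FDR = 0.502), and 0.46 (FDR = 0.418) after correction for the UMI limit. Saa3 gave 1.72 (SE 0.58, FDR = 0.0504), and 2.2 (FDR = 0.0168) without aggregate replicate 2.

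**Figure D3:**
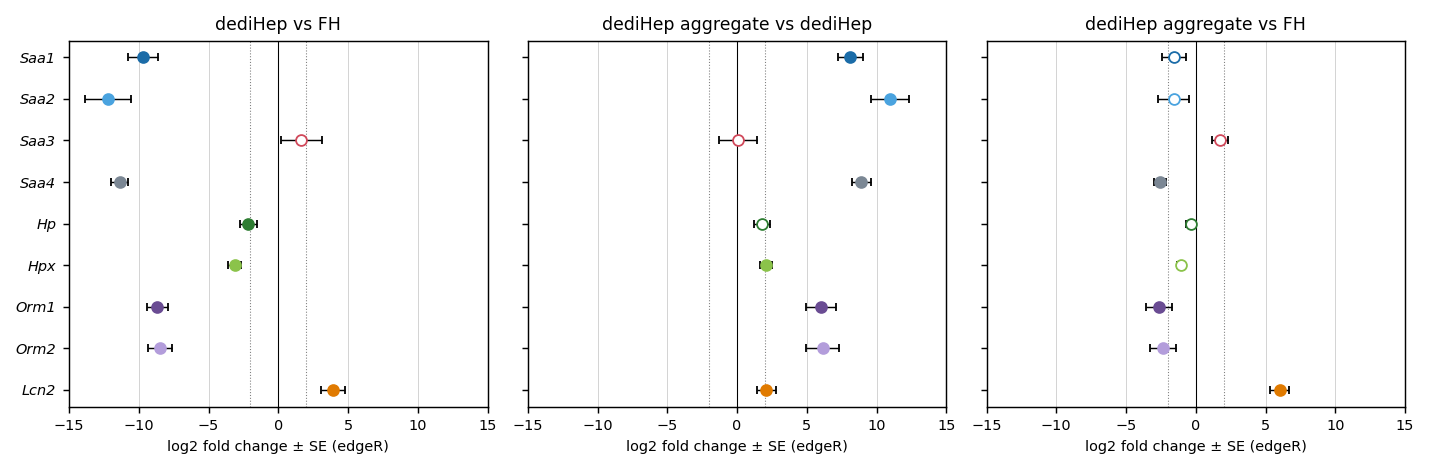
Log2 fold change (x axis, with SE bars) of the 9 members for dediHeps over FH, aggregates over dediHeps and aggregates over FH, with filled points for genes called changed, open points for genes not called and dotted lines at -2 and 2. In dediHeps, 7 members lie between -12.24 and -2.15. In aggregates over dediHeps the same 7 lie between 1.80 and 10.95, and Saa3 lies within its SE of 0.

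Against 4.39% of all genes called higher, 18 of 27 further acute-phase proteins tested were called higher in aggregates than in dediHeps and none lower. They included Itih3, a carrier of hyaluronan, from a mean of 14.9 to 1260 CPM (log2 6.47, SE 0.71), complement C4b (6.25, SE 0.72) and the antiproteases Serpina10 (7.54, SE 0.92) and Serpina3n (9.93, SE 1.28). Negative acute-phase proteins were called higher as well, 7 of 12, among them Serpinc1, antithrombin (7.95, SE 0.70), and Apoa2 (7.89, SE 0.91). Genes near 0 in dediHeps can pass the filter on low counts only through the aggregates, so nothing is read from these shares. Il6ra rose (2.87, SE 0.39), and Nfkbiz (-2.16, SE 0.34) and Nfkb1 (-2.78, SE 0.87) fell. Of 4 cytokines tested, 3 fell: Cxcl1 (-2.31, SE 0.42), Ccl2 (-2.40, SE 0.53) and Lif (-4.90, SE 1.44).

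CLiPs were compared with dediHeps as another dedifferentiated state of hepatocytes. Only 4 members, Saa3, Hp, Hpx and Lcn2, passed the filter on low counts, and Lcn2 was called higher, against 1.65% of 11567 genes. Lcn2 had 1328, 891 and 1908 CPM in CLiPs, all above the highest dediHep library at 485 and, as a mean of 1376 ± 510.2 (SD, n = 3), the highest of the 16 conditions. Its log2 fold change was 2.87 (SE 0.67, edgeR FDR = 0.0545), and the FDR passed 0.1 without dediHep replicate 2 or 5 or CLiP replicate 1 or 3 (0.11 to 0.176). Csf1r made up most of the macrophage marker sum in CLiPs, a mean of 114 of 119 CPM, with 10 of 15 markers at 0, and neutrophil markers were at 0.488 to 1.54 CPM.

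Saa3 was at 79.9, 148 and 196 CPM in CLiPs, above 4 of the 5 dediHep libraries. The log2 fold change was 0.61 (SE 1.33, edgeR FDR = 0.854), and 3.79 (SE 0.66, FDR = 0.026) without dediHep replicate 4. Hp had 279, 349 and 1664 CPM and Hpx 277, 559 and 1621, overlapping dediHeps. Their log2 fold changes of 0.37 (FDR = 0.841) and 0.75 (FDR = 0.555) turned to -0.91 (FDR = 0.697) and -0.23 (FDR = 0.928) without CLiP replicate 3. Saa1, Saa2, Saa4, Orm1 and Orm2 were seen in CLiPs almost only in that library, Saa2 at 0.512, 0 and 47.3 CPM, Saa4 at 0, 0.224 and 9.76. Of 23 further acute-phase proteins tested, 4 were called higher: Serping1 (8.88, SE 1.23), Serpina10 (7.55, SE 1.27), C4b (5.33, SE 0.97) and Crp (3.8, SE 0.63).

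SOs placed dediHeps under conditions for the intestinal lineage, and the members other than Lcn2 were then at or near 0. Saa1, Saa2, Saa4, Orm1 and Orm2 had no count in the 3 SO libraries. Hp had 0.315, 0 and 3.17 CPM and Hpx 7.56, 4.52 and 31.2, below every dediHep library. Of the 4 members tested, 3 were called lower than in dediHeps, against 4.65% of 11470 genes: Hp (log2 -8.91, SE 1.17, edgeR FDR = 0.000712), Hpx (-5.00, SE 0.78, FDR = 0.002) and Saa3 (-8.89, SE 2.47, FDR = 0.0422). These 3 passed the filter through the dediHeps and would not have passed on the SOs alone, so nothing is read from their share. Saa3 had 1 count in the SOs, 709-fold below dediHeps (95% counting interval 127 to 28042), but the dediHep level rests on replicate 4, and the call was lost without any 1 SO library (FDR = 0.106 to 0.185).

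Lcn2 was retained in the SOs at 227, 203 and 118 CPM, within the range of dediHeps (log2 0.02, SE 0.65, edgeR FDR = 0.987). The direction turned in 5 of the 8 fits that leave out 1 library, and after the UMI correction (-0.03). In the SOs of fetal intestinal progenitors Lcn2 had 0.773, 0 and 0 CPM, 792-fold lower (95% counting interval 219 to 6550, log2 9.30, SE 0.71, FDR = 7.61e-05). Hpx was also higher in the SOs of dediHeps than in the fetal ones, 117-fold (20.5 to 4658, log2 6.44, SE 1.16, FDR = 0.00483). These were the 2 members tested, beside 4.92% of 11608 genes called higher, and both passed the filter only through the SOs of dediHeps, so nothing is read from their share. Saa3 went the other way in counts, with 1 in SOs of dediHeps and 23 in fetal SOs, a ratio of 20.1 (3.26 to 827).

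The neutrophil list was higher in the SOs of dediHeps than in fetal SOs, as Lcn2 was. It was also higher than in dediHeps, from which Lcn2 did not differ. The sum of the list was 63.4 to 109 CPM, against 0 to 19.7 in dediHeps and 2.53 to 13.9 in fetal SOs, and came mostly from lactoferrin Ltf (mean 45.9 CPM) and Ly6g (39.2). The part of neutrophils in the Lcn2 level was not tested. The other defining markers S100a8, Mpo, Elane, Ngp, Camp, Retnlg and Cxcr2 were at 0 in all 3 libraries, as were 13 of 15 macrophage markers. Among the other lists, 5 of 8 further acute-phase proteins tested were called higher in SOs of dediHeps than in fetal SOs, including ceruloplasmin Cp from 0 to a mean of 185.5 CPM, complement C3 (log2 7.69, SE 0.60), the immunoglobulin transporter Pigr (5.13, SE 0.36) and the endotoxin-binding Lbp (4.64, SE 0.48). Nfkb2 (2.40, SE 0.44), Cebpd (2.92, SE 0.44) and all 4 cytokines tested were called higher too.

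In BOs of dediHeps that carried Cdx2, Lcn2 was lost. It had 0, 0.864 and 0 CPM, 622-fold below SOs of dediHeps (95% counting interval 172 to 5142, log2 -9.00, SE 0.66, edgeR FDR = 2.59e-05). Hpx had 6.51, 3.46 and 0.431 CPM, overlapping the SOs, with a log2 fold change of -2.08 (SE 0.86, FDR = 0.0922) that was lost without SO replicate 1 or 3 or any BO library (FDR = 0.108 to 0.341). These 2 were the members tested, against 5.68% of 11301 genes called lower, and Lcn2 passed the filter only through the SOs. Hp, Saa2, Saa4, Orm1 and Orm2 had no count in the BOs, and Saa1 had 2. C3 (-7.94, SE 0.53), Cp (-9.02, SE 0.63), Lbp (-4.94, SE 0.50), the interleukin-1 antagonist Il1rn (-3.67, SE 0.54), Nfkb2 (-2.48, SE 0.39) and all 4 cytokines tested were called lower beside Lcn2. The Cdx2 retrovirus and the budding form came together. In the study these BOs also formed after Wnt3a and a further Wnt agonist were removed from the medium. The virus, the form and the medium cannot be told apart here.

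BOs of adult intestinal stem cells had 0 to 0.456 CPM of each member, and Hp, Saa2, Saa4, Orm1 and Orm2 had no count. No member passed the filter on low counts in the comparison of the 2 kinds of BO. Hpx had 22 counts in BOs of dediHeps and 1 in those of stem cells, a ratio of 28.7 (95% counting interval 4.63 to 1182), and Saa3 8 and 2, a ratio of 5.21 (1.04 to 50.4). The change of Lcn2 from SOs to BOs differed between the origins, with an interaction of -8.95 on the log2 scale (SE 2.27, edgeR FDR = 0.0236), beside 4.08% of 12379 genes called lower in it. Lcn2 passed the filter only through the SOs of dediHeps, so the filter fixed this sign, and nothing is read from its share. The intestinal SOs were fetal and the BOs adult, so form and age cannot be told apart there. The intestinal organoids had 2 counts of Lcn2 in each form, and without ISC BO replicate 2 the FDR was 0.112. The interaction of Hpx was -2.03 (SE 3.05, FDR = 0.673).

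Verteporfin was compared with DMSO after 7 days, with 2 libraries a group. Saa4, Saa1, Saa2, Saa3, Orm1 and Orm2 were at 6.94 CPM or less in all 4 libraries and did not enter the test. Hp was lower with verteporfin, at 110.4 and 119 CPM against 505 and 379.6 with DMSO, without overlap (log2 -1.96, SE 0.25, edgeR FDR = 0.017). This stopped short of the fold threshold, and Hp was called without DMSO replicate 2 (-2.18) and after correction for the UMI limit (-2.07, FDR = 0.0217). Hpx had 411 and 554 CPM against 799 and 1064 (log2 -0.95, SE 0.23, FDR = 0.211), and Lcn2 146 and 216 against 278 and 303 (-0.69, SE 0.25, FDR = 0.449). The groups did not overlap for any of the 3, and none of the 3 members tested was called, beside 0.0288% of 10400 genes called lower and 0.24% higher. Hepatocyte markers summed to 3409 CPM or more with verteporfin and 3961 or more with DMSO. DMSO cultures held more Hp, Hpx and Lcn2 than the time course at 7 days in their means, at 442 and 264, 932 and 349, and 291 and 259 CPM. Lcn2 overlapped, as the time course spanned 128 to 329 CPM around both DMSO libraries. The DMSO libraries and those of the time course bear different numbers in their names.

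Over the 16 condition means, on the scale of log2(CPM + 1), the members other than Saa3 fell into the same kinds. These correlations are descriptions over n = 16 conditions, which share the scaling and differ in how much of the hepatocyte state they hold. Orm1 and Orm2, whose reads are hard to split, had r = 0.998, Saa1 and Saa2, with the same limit, 0.984, Saa1 and Orm1 0.985, and Hp and Hpx 0.978. Lcn2 was the member least like each amyloid and orosomucoid, from 0.286 with Saa4 to 0.529 with Orm1. It was closer to Hp (0.752) and Hpx (0.790), which were least like Saa2 (0.653) and Saa3 (0.605). Saa3, in none of the kinds above, was closest to Orm2 (0.806). Among 14278 genes outside the members, the closest to Saa1 and to Orm1 was Serpina3k (r = 0.983 and 0.988), to Orm2 C4b (0.989), to Saa2 Serpina3c (0.976) and to Saa4 Hgd (0.994). The closest to Hp was Alb (0.985), to Hpx Slc38a3 (0.981), to Saa3 Apcs (0.888) and to Lcn2 the transglutaminase Tgm2 (0.938).

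The order of the condition means differed between members. Saa1, Saa2, Saa3, Hpx, Orm1 and Orm2 were highest at 3 h, Saa4 and Hp in FH, and Lcn2 in CLiPs. This order depends on the scaling, as the TMM factors of FH and 3 h libraries, 0.633 to 0.735, raise their CPM. Without these factors Saa1 and Saa2 were highest at 1 day (1370 and 924 CPM, against 1339 and 706 at 3 h). Saa3 was then highest in CLiPs (141, against 108 at 3 h) and Hp in aggregates (1823, against 1455 in FH). Neighbours in that order overlapped at the top for all but Orm2, whose 3 h libraries all lay above FH: Saa1 at 3 h and 1 day (2087 ± 615 and 1436 ± 152 CPM, SD, n = 3), Hp in FH, at 3 h and in aggregates (2196 ± 810.3, 2129.7 ± 378 and 1924 ± 314), Hpx at 3 h and in FH (4037 ± 179.6 and 3566 ± 368), and Lcn2 in CLiPs and at 1 day (1376 ± 510.2 and 1350.4 ± 321).

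The highest of these levels were limited by the assay. A UMI of 6 bases allows a fixed number of distinct molecules of a gene in a library, and Lcn2 reached 97.3% of it with 3985 counts in CLiP replicate 2, Hpx 3954 and Hp 3831 in aggregate replicate 3. At such counts further molecules add few new UMIs, so the CPM understate the level and its differences. Corrected for repeated UMIs, the mean of Hpx was 5715 CPM in FH, 8764 at 3 h and 4005 in aggregates, where the uncorrected means were 3566, 4037 and 1911. The corrected mean of Lcn2 was 3161 CPM in CLiPs and 1974 at 1 day, that of Hp 2574 in FH and 3739 in aggregates, and that of Saa1 2183 at 1 day. The order of Hp in FH and in aggregates thus turned with the correction. So did that of Saa2 at 3 h and 1 day, with corrected means of 1067 and 1119 CPM.

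**Figure D4:**
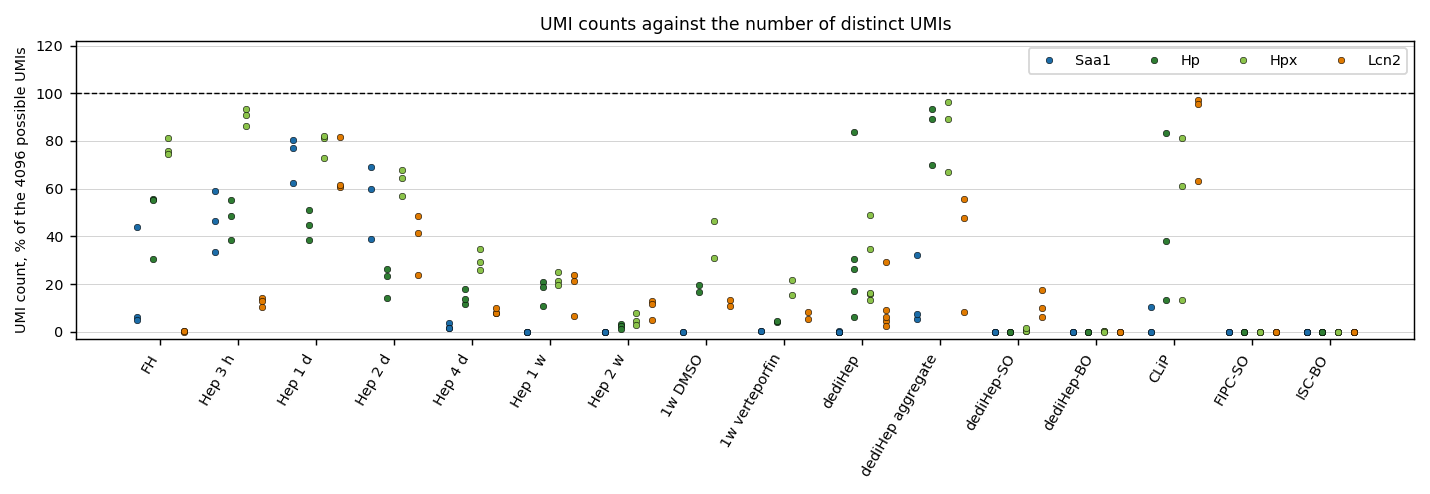
UMI counts of Saa1, Hp, Hpx and Lcn2 in each library, by condition (y axis, % of the distinct UMIs that 6 bases allow; points are libraries). Lcn2 reaches 97.3% in CLiPs and Hpx 96.5% in aggregates and 93.6% at 3 h, while Saa1 reaches 80.3% at 1 day.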

How the data were processed

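RNA of 49 libraries was sequenced by CEL-seq2. Per the labels and the study's methods, the authors demultiplexed reads with bcl2fastq 2.20, aligned them to GRCm38 with Bowtie2 2.3.1, counted genes with HTSeq 0.6.0 and deposited a table of UMI counts, not normalized. Groups came from the titles. Here CPM were scaled by TMM over all 49 libraries. Comparisons used edgeR 4.0.16 (R 4.3.3): filterByExpr (minimum count 10, minimum total 15), quasi-likelihood F-test, Benjamini-Hochberg over all genes tested, calls at FDR under 0.1 and log2 fold change beyond 2, and SE from the F value. Counts were corrected for the UMI limit as an alternative, beside DESeq2 1.42.0, other normalizations and filters, a fit of all libraries, replicate blocks and leaving out each library. Ratios and bounds used 3 counts over a group as the floor and 95% intervals that cover counting error only. On simulated counts for 3 h over FH, edgeR recovered 83.6% of 8-fold and 97% of 16-fold changes. All 9 members were named throughout, and up to 4 called genes of each list by smallest p. Members and lists were chosen with earlier results of these data known. Aggregates and dediHeps with the same culture name deviated together (r = 0.178 to 0.357 in 3 pairs), so a paired value is given where it changed a call. Promoter sequences and positions are RefSeq's for GRCm38.p6, and identity was computed with Biopython 1.88. Counts of each pair of libraries within a group were compared by chi-square, which found no library deposited more than once in its group. Libraries of different groups were not compared in this way.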

Additional observations from a re-analysis of the deposited data

Results flagged for a closer look

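In dediHeps, 1 of 5 libraries lay far from the rest in 2 of the 7 member and group pairs that could be checked. By chance the rule puts about 1 in 20 pairs apart, if values are independent and normally spread. These 7 pairs share the same 5 libraries and both flags fell on replicate 4, so that rate does not apply. Saa3 had 419.6 CPM (420 to 3 digits) in replicate 4, against 16.3 or less in the other 4 libraries. Saa1 had 4.07 CPM in the same library, against 0.965 or less. Its Hp, Hpx and Lcn2 were also the highest of the group, at 1396, 816 and 485 CPM.

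The step from spherical to budding organoids differed for Lcn2 between dediHep and intestinal origin, by -8.95 on the log2 scale (SE 2.27, edgeR FDR = 0.0236). Lcn2 had 182 and 0.288 CPM in SOs and BOs of dediHeps, and 0.258 and 0.22 CPM in the fetal SOs and adult BOs of the intestine, where each form held 2 counts. Lcn2 passed the filter on low counts only through the SOs of dediHeps, so the filter fixed the sign of this difference.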

How the results depend on the processing

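Other normalizations, filters and fits kept the direction and the call of the members in 562 values, while 9 turned direction, 7 gained the call and 6 lost it, and leaving out 1 library kept 575, turned 27, gained 14 and lost 32. Where a cause is not given below, it was not tested. With no low-count filter more genes were tested, and the genes called were 4481 in dediHeps over FH (2901 in the report), 1608 in aggregates over dediHeps (1071), 3007 in aggregates over FH (1580), 714 in CLiPs (352), 1652 in SOs over dediHeps (1005), 2052 in SOs over fetal SOs (1034), 2385 in BOs over SOs (1275), 798 in BOs over stem-cell BOs (345), 90 with verteporfin (28) and 1758 in the interaction (1170). Members called then were 5 in CLiPs (1), 4 in SOs over fetal SOs (2), 1 in BOs over stem-cell BOs (0) and 2 in the interaction (1). With all 49 libraries in 1 fit the genes called were 1805 in aggregates over dediHeps, 2725 in aggregates over FH, 1169 in CLiPs with 6 members, 1678 in SOs over dediHeps, 1558 in SOs over fetal SOs and 1953 in BOs over SOs, with 1 member in BOs over stem-cell BOs. That fit called 0 genes with verteporfin, where edgeR on the 4 libraries found 961 at an unadjusted p under 0.05 and DESeq2 called 23. DESeq2 called 2378 genes and 2 members (4 in the report) in aggregates over FH, 723 in CLiPs, 1552 in SOs over fetal SOs, and 540 with 1 member in BOs over stem-cell BOs. Near 0, directions turned: Hp at 3 h was 0.000307 with RLE normalization, and Saa3 at 2 days was 0.0421 with no filter, 0.0362 with all libraries and 0.0321 after the UMI correction. After that correction Saa3 in aggregates over dediHeps was -0.0583, Hp in aggregates over FH 0.46 and Lcn2 in SOs over dediHeps -0.0289, and 1 member was called with verteporfin (0).

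With the number in the library name as a block, 264 genes were called at 3 h (860) and 59 with verteporfin (28), Hp at 3 h was 0.12, and Saa2 at 1 day was 2.43 (edgeR FDR = 0.019), which called it. Libraries at 1 day and FH of the same number did not all deviate together either (r from -0.138 to 0.4). With the number in the title as a block, Saa3 in dediHeps over FH was -2.06 (edgeR FDR = 0.00646), against 1.66, and 2 members were called in CLiPs (1) and 1 in BOs over SOs (2). In these comparisons same-numbered libraries did not all deviate together (r from -0.0543 to 0.557 for dediHeps and FH), so the number is not taken as a pairing. Pairing aggregates with dediHeps by culture ended the call of Lcn2 and changed no other member's call there.

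Leaving out 1 library gave 620 to 1527 genes and 2 to 4 members at 3 h, 2 to 4 members at 1 day, 2 to 6 in aggregates over FH, 109 to 488 genes and 0 to 3 members in CLiPs, 1023 to 1716 genes in SOs over fetal SOs, 1234 to 2108 genes and 1 to 2 members in BOs over SOs, 33 to 106 genes and 0 to 1 members with verteporfin, and 749 to 2157 genes and 0 to 1 members in the interaction. Log2 fold changes ranged at 3 h from -0.38 to 0.15 for Saa4 and -0.29 to 0.25 for Hp, at 2 days from -0.40 to 1.74 for Saa1, -0.29 to 2.74 for Saa2 and -0.78 to 0.30 for Saa3, and for Saa3 from -1.51 to 1.98 in dediHeps over FH and -0.79 to 3.24 in aggregates over dediHeps. In aggregates over FH they ranged from -2.63 to 0.14 for Saa1 and -3.26 to 0.99 for Saa2, in CLiPs from -0.91 to 0.98 for Hp and -0.23 to 1.16 for Hpx, and in SOs over dediHeps from -0.25 to 0.75 for Lcn2. The number of UMIs limits Hpx, Hp, Lcn2 and Saa1 from above, and depth limits the members near 0 from below.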
